A study of Mus musculus with 5 samples.

Results

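Imprinted genes are transcribed mainly from the chromosome inherited from one parent. The 10 described here are Phlda2, Igf2, H19, Cdkn1c, Ascl2 and Slc22a18, which lie together on the distal part of mouse chromosome 7, and Peg3, Mest, Grb10 and Igf2r from imprinted domains elsewhere. They were taken by name, each through the array probe sets annotated with that gene symbol and no other. Each of 9 genes had 1 such probe set, so the rule of taking the one with the highest mean over the arrays had no choice to make. H19 had none and is not analysed here. The 9 measured genes stand among 19938 genes with a symbol of their own on the array. The list was drawn up with earlier results of these arrays known, and around Phlda2, whose decrease was among them, so the values of Phlda2 are given as a description with no test.

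The measurements come from mouse embryonic stem (ES) cells, the pluripotent cells of the early embryo, hybridised to Affymetrix whole-transcript arrays. There were 2 arrays of Dicer-deficient (KO) cells and 3 of wild type (WT) cells, all from asynchronous cultures without feeders, in equal parts of serum+LIF and N2B27+2i media. Dicer is the enzyme that cuts microRNAs from their precursors. The sources used here give neither the cell line nor the way Dicer was lost, nor whether the KO cells are 1 clone, so effects of Dicer and other differences between the 2 kinds of cell cannot be told apart. The design text calls the cultures biological replicates. Signals were read as log2 values, their log base not being given, and a difference of 1 is then a factor of 2. The arrays do not separate the parental alleles, and a lower signal cannot be told apart as fewer expressing cells or less RNA per cell.

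Imprinting rests mainly, though not for every gene, on DNA methylation set in the egg or sperm at imprinting control regions. That methylation then decides which parental copy of the neighbouring genes is used. The distal chromosome 7 cluster has 2 such regions, one governing Igf2 and H19 and the other, at the promoter of the long noncoding RNA Kcnq1ot1, governing Cdkn1c, Phlda2, Slc22a18 and their neighbours. Many imprinted genes act on fetal and placental growth: as a rule of thumb those expressed from the father's copy promote growth and those from the mother's copy restrain it. In ES cells imprints are known to be less stable than in the embryo.

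Across all 19938 genes limma, a linear model with moderated variances, called 1690 higher and 1714 lower in KO cells at an adjusted p under 0.05. The 5 array medians were 5.39 to 5.45; precision is limited by how few arrays there are. Dicer1 itself averaged 7.02 ± 0.255 (SD, n = 2) in KO cells and 8.84 ± 0.0153 (SD, n = 3) in WT cells, a log2 change of -1.82. Which part of Dicer1 was removed is unstated, so the probe set may or may not read it. At an unadjusted p under 0.05, 2719 of all genes were higher and 2826 lower. Of 8 ES cell markers, 0 rose and 2 fell in the limma test (0 and 2 also at an unadjusted p under 0.05). These were Esrrb and Tdgf1, with log2 changes of -0.72 and -0.70 (adjusted p = 0.00655 and 0.00168), and the median signal of the list ran from 10.94 to 10.945 over KO arrays and from 11.025 to 11.275 over WT arrays. The call of Esrrb was lost without WT array 2 (adjusted p = 0.0535) or KO array 2 (0.0914).

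Shown first are the start regions of Phlda2, given without a test, and of the 4 genes of the list that passed the test for a difference. Most imprints are carried by methyl groups on the base pair step CpG. The windows were not matched to imprinting control regions, so their CpGs are not read as the site of an imprint. Each is a 300 base window, 250 bases before to 50 after the annotated start, on the GRCm38.p6 build from RefSeq, written 5′ to 3′ on the gene's strand with every CpG in capitals. Windows were found for 8 of the 10 genes. Where a gene has several starts, the window with the most CpGs is printed, which sets its count high against other windows.
Phlda2 (chr7:143502475-143502774, minus strand): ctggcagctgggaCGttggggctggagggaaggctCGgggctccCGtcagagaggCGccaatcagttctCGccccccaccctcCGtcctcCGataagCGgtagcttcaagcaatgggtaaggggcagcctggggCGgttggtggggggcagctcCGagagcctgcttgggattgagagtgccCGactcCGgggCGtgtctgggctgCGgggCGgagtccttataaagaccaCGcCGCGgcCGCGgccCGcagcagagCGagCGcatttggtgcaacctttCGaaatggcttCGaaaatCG
Slc22a18 (chr7:143473539-143473838, plus strand): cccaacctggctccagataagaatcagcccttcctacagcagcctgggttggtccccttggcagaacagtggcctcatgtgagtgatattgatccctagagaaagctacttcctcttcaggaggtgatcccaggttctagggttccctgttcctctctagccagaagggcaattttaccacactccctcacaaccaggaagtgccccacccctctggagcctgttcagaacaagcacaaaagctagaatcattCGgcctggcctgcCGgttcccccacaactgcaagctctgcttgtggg
Mest (chr6:30737800-30738099, plus strand): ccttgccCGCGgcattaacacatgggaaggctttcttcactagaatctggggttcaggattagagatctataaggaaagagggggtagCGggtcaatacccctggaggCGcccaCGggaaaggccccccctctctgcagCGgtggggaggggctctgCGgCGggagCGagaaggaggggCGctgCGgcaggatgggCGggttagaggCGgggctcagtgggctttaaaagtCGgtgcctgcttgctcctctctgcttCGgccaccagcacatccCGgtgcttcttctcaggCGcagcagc
Grb10 (chr11:12037371-12037670, minus strand): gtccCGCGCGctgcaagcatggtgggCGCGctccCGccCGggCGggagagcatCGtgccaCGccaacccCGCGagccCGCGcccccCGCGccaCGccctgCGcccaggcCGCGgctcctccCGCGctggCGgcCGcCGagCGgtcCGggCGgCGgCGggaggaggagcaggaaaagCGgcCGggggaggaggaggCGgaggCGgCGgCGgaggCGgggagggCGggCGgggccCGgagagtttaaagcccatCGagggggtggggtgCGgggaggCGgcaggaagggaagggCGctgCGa
Igf2r (chr17:12769657-12769956, minus strand): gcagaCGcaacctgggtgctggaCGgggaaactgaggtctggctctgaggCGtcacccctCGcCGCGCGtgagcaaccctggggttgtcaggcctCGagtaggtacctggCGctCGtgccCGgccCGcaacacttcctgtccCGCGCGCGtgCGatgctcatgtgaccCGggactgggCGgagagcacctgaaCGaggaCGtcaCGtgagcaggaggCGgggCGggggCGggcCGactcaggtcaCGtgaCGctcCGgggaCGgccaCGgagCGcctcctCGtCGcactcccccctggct
Phlda2 and Slc22a18 are neighbours in the same domain, and their windows differ widely, with 26 CpGs for Phlda2 and 2 for Slc22a18. The median over all 32851 windows was 7. Igf2r, with 1 window, had 34. Grb10 had 45 in the window printed and 9 in its other one, and the 3 windows of Mest had from 8 to 17. The letters TGCCGC, the core of the sequence bound by the imprint-keeping protein ZFP57 when methylated, were searched on both strands. They occurred 2 times in the Mest window and 1 time in that of Grb10, and not in the other 3 printed here. Of all 14 windows found for the listed genes, 4 hold them, and of all windows in the genome set 11.61% do. The letters contain a CpG, and printed windows were chosen for their CpGs, which favours such letters in them. The 14 windows come from 8 genes, with 4 from Igf2 and 3 from Mest. They are therefore not independent, and their share was not tested against that of all windows.

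Phlda2 encodes a small pleckstrin homology domain protein that, expressed from the maternal copy, limits growth of the placenta. Its signal was 6.21 and 6.66 on the KO arrays, against 8.41, 8.25 and 8.76 on the WT arrays. Both KO values lay far below the lowest WT value. That is a level 4.11-fold lower, a log2 change of -2.04 (standard error, SE, 0.177; 95% interval -2.45 to -1.62). As the gene was chosen with its decrease known, the interval too is a description and not a test. Ranked by decrease it was number 14 of the 19938 genes, and with any 1 array dropped the change stayed between -2.26 and -1.81. The KO arrays themselves differed by 0.45.

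Slc22a18, next to Phlda2, encodes a membrane transporter of the organic cation family, also maternally expressed. It had a signal of 6.25 and 6.29 on KO arrays, against 6.51, 6.70 and 6.56 on WT arrays. The groups did not overlap, yet the difference was far smaller than that of its neighbour. The level was 1.25-fold lower (log2 change -0.32, SE 0.0867, adjusted p = 0.0424). That call was lost whichever array was left out, with adjusted p from 0.064 to 0.225, and also after centring each array on its median (adjusted p = 0.0524) or with an intensity trend in the variance (0.0616).

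Ascl2, a basic helix-loop-helix factor needed for the spongiotrophoblast of the placenta, had a signal of 5.40 and 5.86 on KO arrays, against 6.10, 6.02 and 6.20 on WT arrays. KO array 2 came close to the lowest WT array, while KO array 1 lay well below. The 5.40 of KO array 1 lay at the median over the whole array (5.404), so the size of the decrease is uncertain. The log2 change of -0.48 (SE 0.137, 95% interval -0.80 to -0.16) did not pass the test at adjusted p = 0.0523. It was -0.25 without KO array 1 and -0.71 without KO array 2, where it passed (adjusted p = 0.0430). It also passed when dim genes were left out (adjusted p = 0.0241), and after centring (0.0374) or quantile normalization (0.0485).

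Cdkn1c encodes p57, a maternally expressed inhibitor of cyclin-dependent kinases that lies between Kcnq1 and Slc22a18. Its signal was 6.29 and 6.45 on KO arrays, against 6.30, 6.50 and 6.62 on WT arrays. The groups overlapped, and the log2 change of -0.10 had a 95% interval of -0.36 to 0.16 (adjusted p = 0.659). That interval does not reach the decrease of Phlda2, from which Cdkn1c is separated in gene order by Slc22a18 alone. Igf2, the paternally expressed fetal growth factor, had a signal of 5.48 and 5.56 on KO arrays, against 5.61, 5.62 and 5.65 on WT arrays. Both KO values lay narrowly below the WT range, and the log2 change of -0.11 (95% interval -0.28 to 0.07) did not pass (adjusted p = 0.455). All 5 values of Igf2 lay close to 5.40, the median over the whole array (hereafter the array-wide median). Signal over background was not analysed, so a change in such a dim gene could go unseen.

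**Figure D1:**
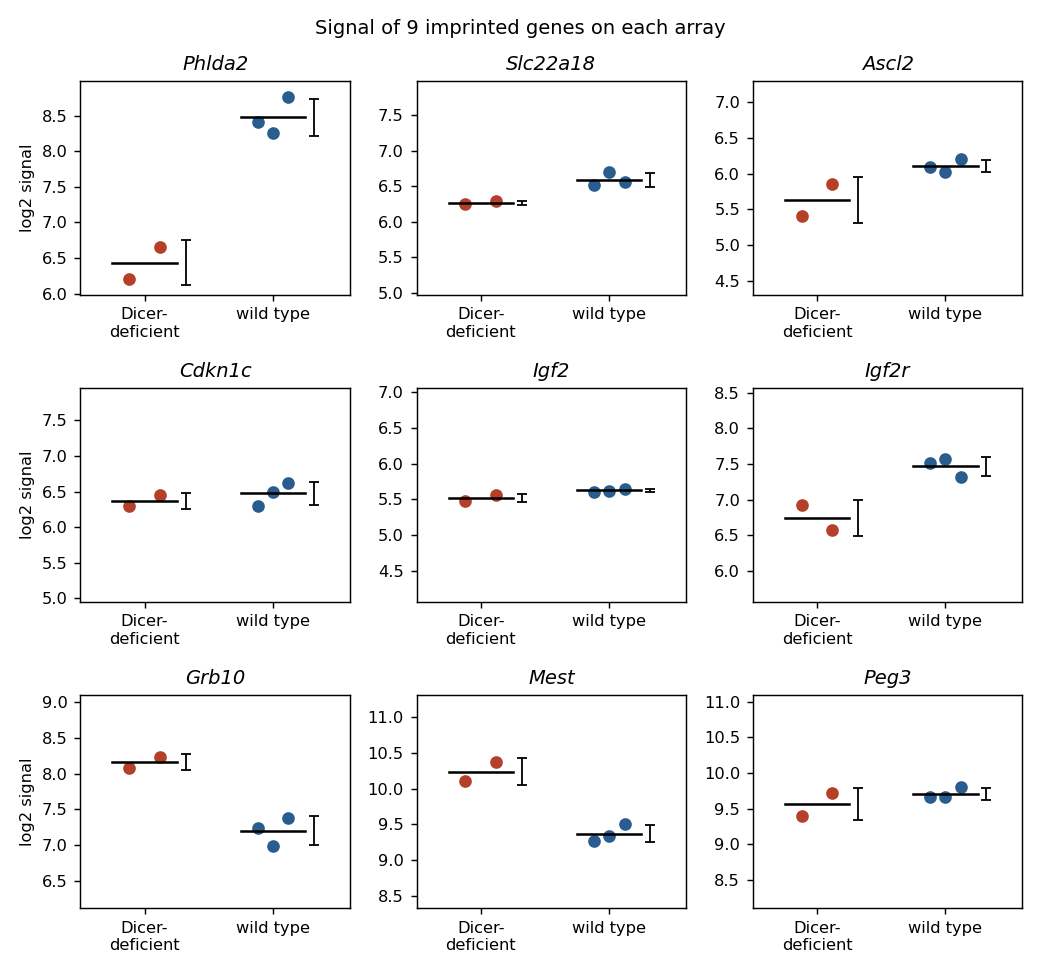
Signal of 9 imprinted genes on each array (y axis, log2 signal, every panel spanning 3 log2 units), with Dicer-deficient arrays left of wild type. Points are arrays, lines are means and bars beside them are SDs; Phlda2, at 6.21 and 6.66 in KO cells, stands apart, Mest and Grb10 lie above the WT arrays, and the points of Cdkn1c and Peg3 overlap.

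Outside distal chromosome 7, Mest and Grb10 rose in KO cells. Mest on chromosome 6, a paternally expressed gene of the alpha/beta hydrolase family known for its role in growth, had a signal of 10.11 and 10.37 on KO arrays, against 9.27, 9.33 and 9.51 on WT arrays. The lowest KO value exceeded the highest WT value by more than the range of either group. The level was 1.83-fold higher (log2 change 0.87, SE 0.112, adjusted p = 0.00199). Without KO array 2 the adjusted p was 0.0552, at a change of 0.74. Grb10 on chromosome 11 encodes an adaptor that binds the insulin and Igf1 receptors and dampens their signalling. It is expressed from the maternal copy in most tissues and from the paternal copy in neurons. Its signal was 8.08 and 8.24 on KO arrays, against 7.24, 6.98 and 7.38 on WT arrays, again without overlap. The level was 1.95-fold higher (log2 change 0.96, SE 0.126, adjusted p = 0.00216). The call was lost without KO array 1 (adjusted p = 0.0581) or KO array 2 (0.0758), at changes of 1.04 and 0.88.

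Igf2r fell in KO cells. This gene on chromosome 17 encodes the receptor that carries Igf2 to the lysosome for breakdown, together with enzymes bearing mannose 6-phosphate, and is maternally expressed in most mouse tissues. Its signal was 6.92 and 6.57 on KO arrays, against 7.52, 7.57 and 7.32 on WT arrays. Both KO arrays lay below all WT arrays, array 2 further than array 1. The level was 1.65-fold lower (log2 change -0.72, SE 0.126, adjusted p = 0.00723). Without WT array 2 the adjusted p was 0.0560 and without KO array 2 it was 0.10, at changes of -0.68 and -0.55. Peg3 on proximal chromosome 7, a paternally expressed zinc finger protein, had a signal of 9.40 and 9.72 on KO arrays, against 9.66, 9.66 and 9.80 on WT arrays. The groups overlapped, the log2 change was -0.15 (95% interval -0.41 to 0.11, adjusted p = 0.492), and it was 0.01 without KO array 1.

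Leaving aside Phlda2, given without a test, 4 of the 8 other measured genes passed, 2 higher and 2 lower. The share of all genes called was 17.1%. Both KO values lay outside the WT range for 6 of the 8 genes, and for 39.9% of all genes. The median log2 change of the 8 was -0.13, against 0.01 for all genes. With 8 genes listed after earlier results were known, these shares are a description. The parental copy used in these cells was not measured. Sorted by the copy each gene is known to use in mouse tissues, the directions were mixed. Of those known as maternally expressed, Phlda2, Slc22a18 and Igf2r were lower and Grb10 higher, while Ascl2 and Cdkn1c did not pass. Of those known as paternally expressed, Mest was higher while Igf2 and Peg3 did not pass. The KO arrays differed from each other by 0.32 to 0.46 for Phlda2, Ascl2, Peg3 and Igf2r. KO array 1 was the lower of the pair for Phlda2, Ascl2 and Peg3 and the higher for Igf2r.

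**Figure D2:**
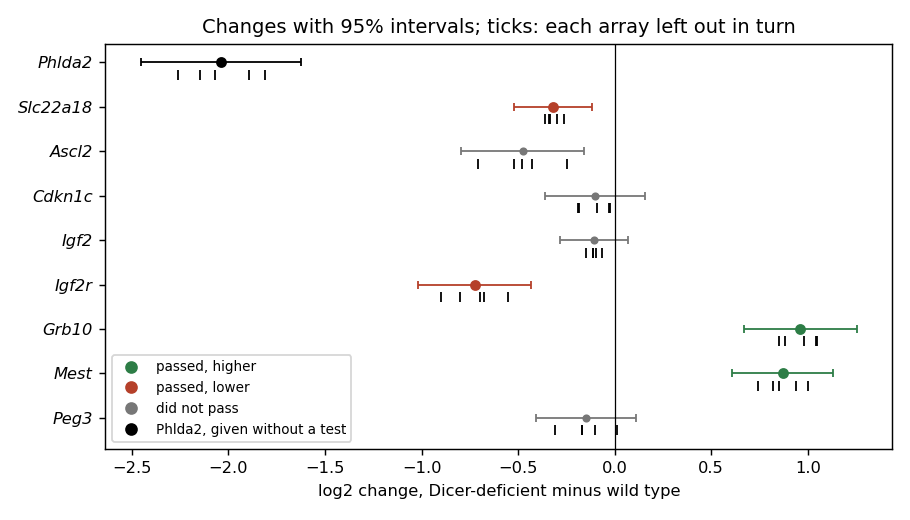
Log2 change of 9 imprinted genes (x axis, Dicer-deficient minus wild type), points with 95% intervals from the moderated fit. The interval of Phlda2 is a description and not a test. Short ticks under each point are the changes when each of the 5 arrays is left out; those of Phlda2 run from -2.26 to -1.81, and those of Peg3 from -0.31 to 0.01.

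Whether the genes beside them on distal chromosome 7 differed in the same way was read from gene order. The run from H19 to Osbpl5 and 15 measured genes on each side were taken, in all 46 genes besides those already described. Of the 46, 9 are also counted among the other imprinted genes below. In KO cells 2 were higher and 4 lower and 40 did not pass, a median log2 change of 0.045 (8.48% of all genes were called higher and 8.6% lower). Nap1l4, a histone chaperone gene directly next to Phlda2, had a signal of 9.91 and 9.98 on KO arrays, against 9.93 to 10.04 on the 3 WT arrays, a log2 change of -0.045 with a 95% interval of -0.23 to 0.14. Beyond it Cars, the cysteinyl-tRNA synthetase, was 1.51-fold lower (log2 change -0.59, SE 0.0811, adjusted p = 0.00263, and 0.0558 without KO array 1). Phlda2 thus had on its 2 sides neighbours with changes of -0.32 and -0.045.

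Tspan32, a tetraspanin gene between Ascl2 and Cd81, differed in the opposite direction. It had a signal of 6.75 and 6.96 on KO arrays, against 5.58, 5.58 and 5.59 on WT arrays, and was 2.41-fold higher (log2 change 1.27, SE 0.0879, adjusted p = 0.000175). Its call held with any 1 array dropped. Its WT signals lay close to the array-wide median, so the size of the rise is uncertain. Ano1, a calcium-activated chloride channel gene beyond the run, rose (log2 change 1.30, SE 0.0884, adjusted p = 0.000168), with a WT mean of 4.90 that lies below that median. The other genes lower in KO cells were Mrpl23, of the mitochondrial ribosome and next to H19, at a log2 change of -0.97 (adjusted p = 0.000971), Dhcr7, of cholesterol synthesis, at -0.53 (adjusted p = 0.00363, and 0.0563 without KO array 2), and the receptor gene Tnfrsf22 at -0.44 (adjusted p = 0.0316). Tnfrsf22 lost its call without WT array 1 or 3 or either KO array, with adjusted p from 0.0663 to 0.240.

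**Figure D3:**
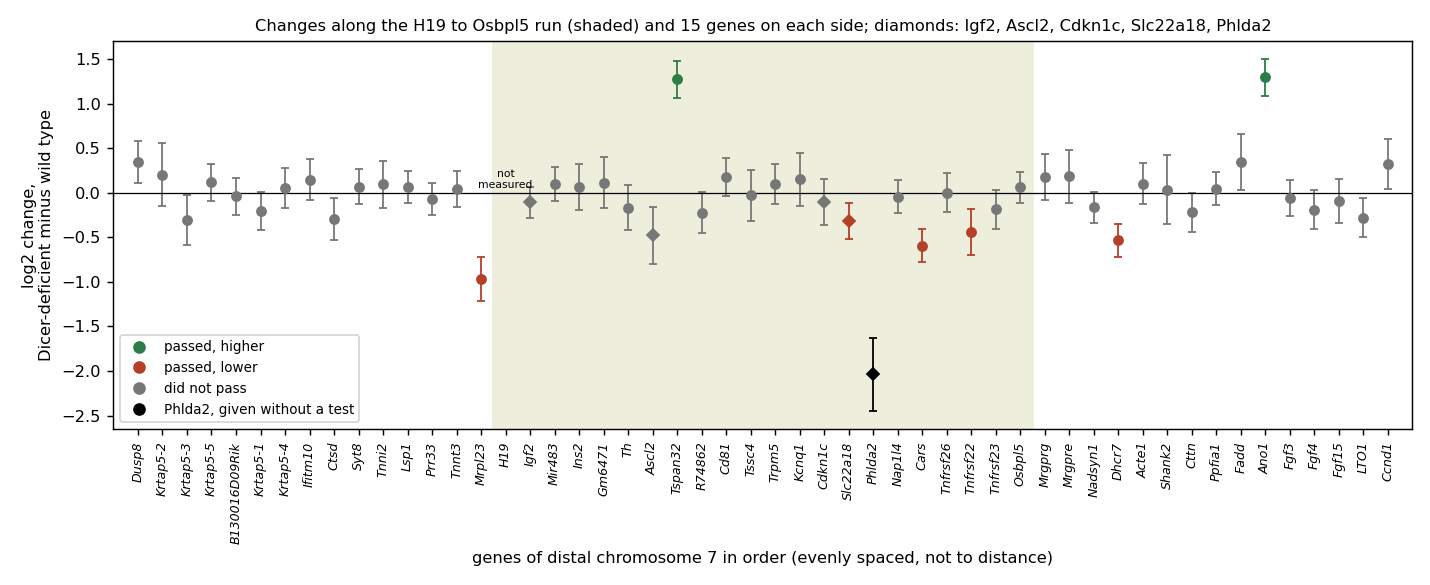
Log2 change (y axis, Dicer-deficient minus wild type, bars are 95% intervals) for the genes of distal chromosome 7 in their order, evenly spaced, with the run from H19 to Osbpl5 shaded. Phlda2 at -2.04, whose interval is a description and not a test, stands between Slc22a18 at -0.32 and Nap1l4 at -0.045. Tspan32 at 1.27 is the highest point within the run.

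Of 63 other genes listed as imprinted, 49 were measured, 31 of them with a mean signal above the array-wide median. Whether each is imprinted in the cells used here was not measured. In KO cells 5 were higher and 6 lower, and 38 did not pass, where 8.48% of all genes were higher and 8.6% lower. Their median log2 change was 0.03, against 0.01 for all genes. The median signal over the list was 5.61 on both KO arrays, and 5.65 to 5.75 on the WT arrays. Besides Tspan32, those that rose were Pon2, Ndn, Plagl1 and Peg10. Pon2, a paraoxonase imprinted in the placenta, had a signal of 6.6 and 6.26 on KO arrays, against 4.77, 4.98 and 4.89 on WT arrays, a log2 change of 1.55 (adjusted p = 0.000241) from a WT level below the array-wide median. Ndn, the paternally expressed necdin, was 1.76-fold higher (adjusted p = 0.00157, and 0.0535 without KO array 2). Plagl1, a paternally expressed zinc finger factor known in mouse to regulate other imprinted genes, was 1.71-fold higher (adjusted p = 0.00329, and 0.0708 without KO array 1). Peg10, a gene derived from a retrotransposon and needed in the placenta, was 1.55-fold higher (adjusted p = 0.0294), a call lost without WT array 1 or 2 or either KO array (adjusted p from 0.0576 to 0.264).

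Besides Dhcr7, the other imprinted genes that fell were Meg3, Rian, Dio3, Slc38a4 and Commd1. Meg3 and Rian, maternally expressed noncoding RNAs of the Dlk1-Dio3 locus on chromosome 12, were 2.09-fold and 1.64-fold lower (adjusted p = 0.000286 and 0.000846), and both calls held with any 1 array dropped. Dio3, the thyroid hormone deiodinase at the other end of that locus, had a log2 change of -1.07 (adjusted p = 0.0114), with adjusted p from 0.0706 to 0.199 without WT array 1 or 2 or either KO array. Its KO mean of 5.10 lay below the array-wide median, as did the 5.005 of Rian. Slc38a4, a paternally expressed amino acid transporter, was 1.58-fold lower (adjusted p = 0.00567, and 0.0655 without KO array 2). Commd1, at a log2 change of -0.56 (adjusted p = 0.0116), lost its call without WT array 1 or 2 or either KO array (adjusted p from 0.0609 to 0.161). Near the other members, Airn, the noncoding RNA that silences Igf2r in cis, had a signal of 3.99 and 4.12 on KO arrays, against 4.05, 4.06 and 4.19 on WT arrays. All of these lie near or below the lower quartile of the arrays, 4.14 to 4.18. Copg2, next to Mest, had a log2 change of 0.06 (95% interval -0.12 to 0.25).

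**Figure D4:**
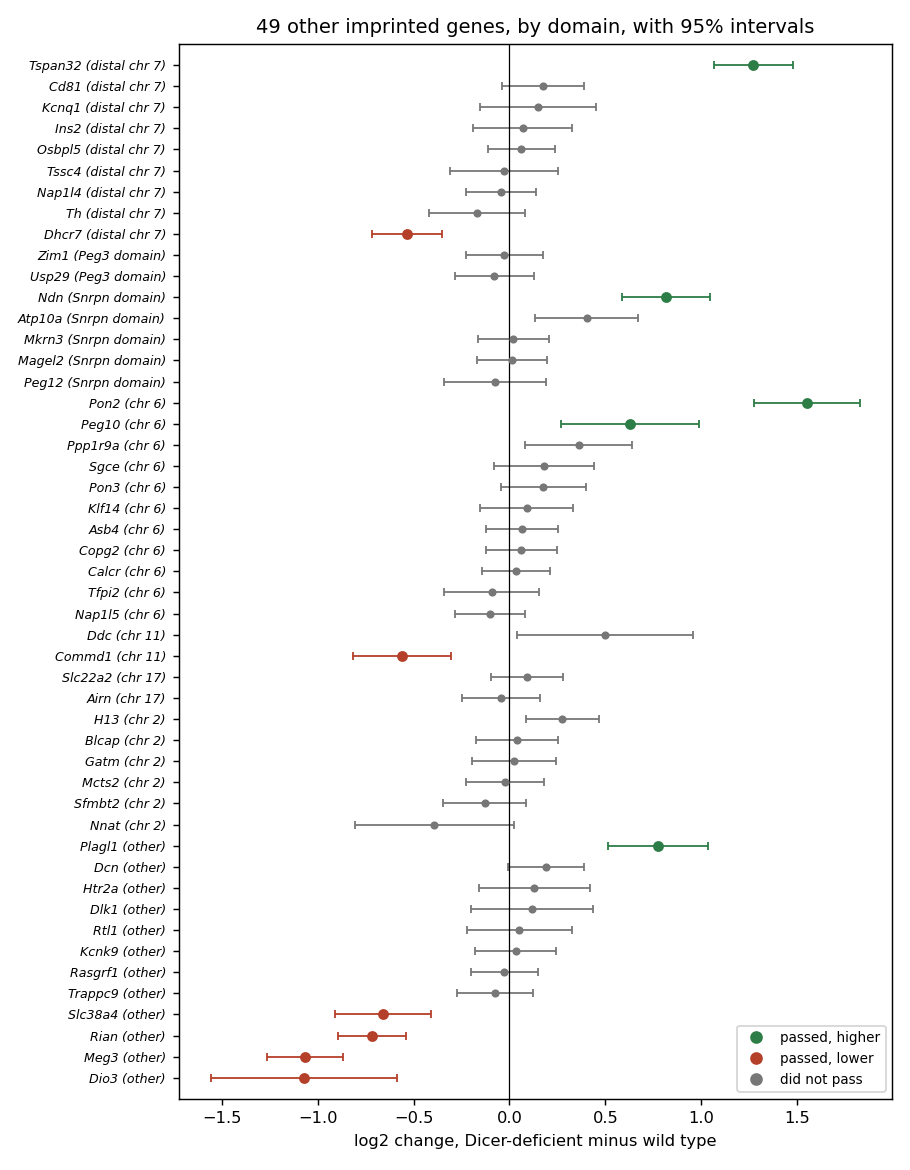
Log2 change (x axis, Dicer-deficient minus wild type, bars are 95% intervals) of 49 other imprinted genes, grouped by domain and sorted within each. Most points lie near 0, with Pon2 at 1.55 and Tspan32 at 1.27 the highest and Dio3 and Meg3 at -1.07 the lowest.

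The 3 microRNA genes within or beside the 10 genes make products that Dicer cuts: Mir675 within H19, Mir483 within Igf2 and Mir335 within Mest. Their mature sequences from RefSeq (GRCm38.p6) are shown because their host genes are among those described, with the seed, bases 2 to 8 that pair with targets, in capitals.
mmu-miR-335-5p (chr6:30741314-30741336, plus strand): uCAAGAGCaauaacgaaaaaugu
mmu-miR-335-3p (chr6:30741354-30741375, plus strand): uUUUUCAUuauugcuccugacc
mmu-miR-483-5p (chr7:142654968-142654989, minus strand): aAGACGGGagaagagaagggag
mmu-miR-483-3p (chr7:142654932-142654952, minus strand): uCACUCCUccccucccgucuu
mmu-miR-675-5p (chr7:142577112-142577133, minus strand): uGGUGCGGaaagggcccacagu
mmu-miR-675-3p (chr7:142577078-142577099, minus strand): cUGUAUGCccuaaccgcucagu
None of the 6 seeds is shared. The array reads RNA from these loci and does not tell precursors from mature forms. The Mir335 probe set had a signal of 4.84 and 4.70 on KO arrays, against 4.75, 4.79 and 4.68 on WT arrays, a log2 change of 0.03 (95% interval -0.17 to 0.23). Mir483 had 7.30 and 7.20 on KO arrays, against 7.08, 7.16 and 7.20 on WT arrays, a log2 change of 0.10 (95% interval -0.09 to 0.29). Mir675 had no probe set of its own and is not analysed here.

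Igf2, Igf2r and Grb10 belong to 1 pathway, in which Igf1 and Igf2 signal through Igf1r and the insulin receptor, secreted binding proteins hold the ligands, and Igf2r removes Igf2. The 19 other genes measured were of this pathway or for Igf2 mRNA binding proteins. In KO cells 2 were higher and 6 lower and 11 did not pass, a median log2 change of 0.00. Of all genes, 8.48% were higher and 8.6% lower. Both signalling receptors were lower. Igf1r had a signal of 6.25 on both KO arrays, against 6.90, 6.84 and 6.76 on WT arrays, 1.498-fold lower (adjusted p = 0.00262, and 0.0519 and 0.0505 without KO array 1 and array 2). Insr, the insulin receptor, was 1.44-fold lower (adjusted p = 0.00866, and 0.120 and 0.0995 without KO array 1 and array 2). Among adaptors, Grb7, of the family of Grb10, was 1.35-fold lower (adjusted p = 0.0181) and Irs2, a substrate of the insulin receptor, 1.39-fold higher (adjusted p = 0.0385). Both were lost without WT array 2 or either KO array, and Irs2 also without WT array 1 (adjusted p from 0.0805 to 0.272). Grb14, the third member of that adaptor family, had a log2 change of 0.07 (95% interval -0.13 to 0.27).

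Among the 19 genes counted above were the 10 measured for Igf binding proteins, their partner Igfals and Igf2 mRNA binding proteins. Of the 10, 1 was higher, 3 were lower and 6 did not pass, where 8.48% of all genes were higher and 8.6% lower. Igfbp2 had a signal of 9.09 and 9.04 on KO arrays, against 10.62, 10.51 and 10.49 on WT arrays. It was 2.78-fold lower (log2 change -1.48, SE 0.0807, adjusted p = 8.18e-05) and its call held with any 1 array dropped. Igfbp3, with 7.54 and 7.57 on KO arrays, against 6.23, 6.64 and 6.44 on WT arrays, was 2.17-fold higher (adjusted p = 0.000942, and 0.0508 and 0.0517 without KO array 1 and array 2). Igfbp4 was 1.31-fold lower (adjusted p = 0.0318), a call lost without WT array 2 or 3 or either KO array (adjusted p from 0.0844 to 0.207). Igf2bp3, which binds Igf2 mRNA, was 1.99-fold lower (adjusted p = 0.000367), while its relative Igf2bp1 had a log2 change of 0.08 (95% interval -0.12 to 0.28). The others that did not pass were Igfbp1, Igfbp5, Igfbp6, Igfbp7 and Igfals, with log2 changes from -0.30 for Igfals to 0.24 for Igfbp1. The ligand genes Igf1 and Ins2, the second of which is also counted among the other imprinted genes, had a mean signal below the array-wide median and changes of 0.03 and 0.07.

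**Figure D5:**
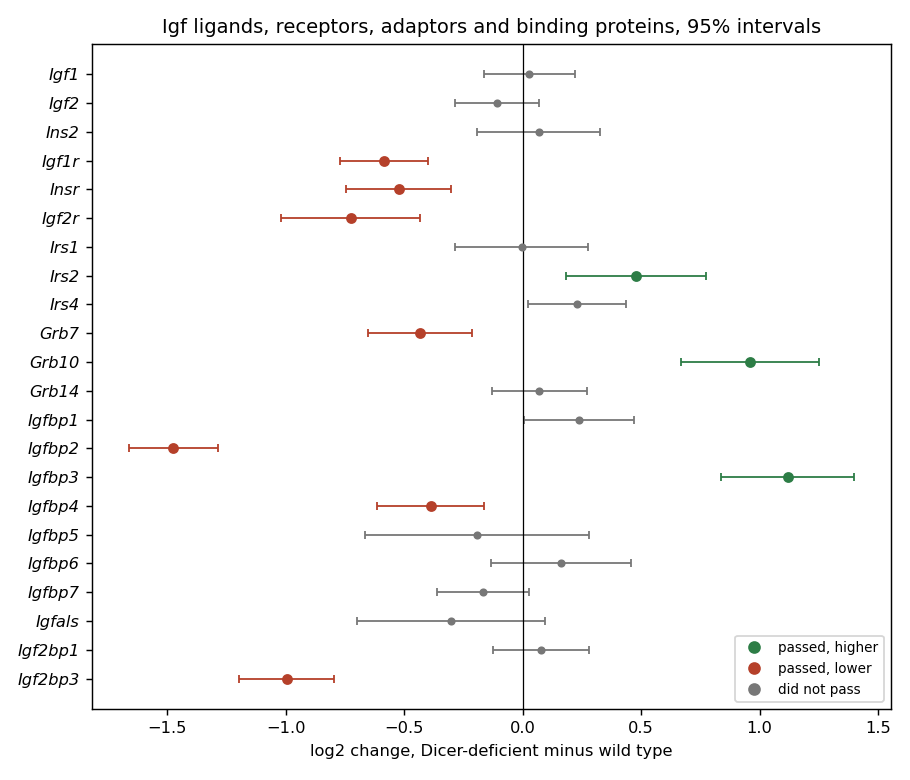
Log2 change (x axis, Dicer-deficient minus wild type, bars are 95% intervals) of Igf ligands, receptors, adaptors, binding proteins and Igf2 mRNA binding proteins. Igf1r, Insr and Igf2r all lie below 0, Grb10 lies at 0.96, and Igfbp2 at -1.48 and Igfbp3 at 1.12 are the ends of the range.

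Relatives of the 10 genes that are not imprinted were read beside them. Phlda1, of the same family as Phlda2, had a signal of 6.45 and 6.63 on KO arrays, against 5.71, 5.62 and 5.88 on WT arrays, and was 1.75-fold higher (log2 change 0.80, adjusted p = 0.0021, and 0.0626 without KO array 2). Phlda3 had a log2 change of -0.03 (95% interval -0.37 to 0.31). Cdkn1b, the p27 relative of Cdkn1c, had a change of 0.00 (95% interval -0.20 to 0.20). Ascl3, Ascl4 and Ascl5 had changes between -0.05 and 0.095, and 0 of the 3 passed in limma (0 also at an unadjusted p under 0.05). Of all genes, 8.48% were higher and 8.6% lower, and 2719 and 2826 of the 19938 were so at an unadjusted p under 0.05. With 3 genes, none passing is no result about this family. The 5 genes whose centred values over the 5 arrays came nearest to those of Phlda2 were Gldc, of glycine breakdown, Ddit4, a brake on mTOR, Ly6e, a surface protein, Pclaf, which binds the replication clamp, and Wdr31. Their root mean square differences from Phlda2 ran from 0.164 for Gldc to 0.253 for Wdr31. None of the 5 lies on chromosome 7, and the likeness rests mainly on the difference between the groups.

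Of 12 factors that set, keep or read imprints, 0 rose and 2 fell in the limma test (0 and 5 at an unadjusted p under 0.05), with a median log2 change of -0.17. Of all genes, 8.48% rose and 8.6% fell, and 2719 and 2826 of the 19938 did so at an unadjusted p under 0.05. Uhrf1, which brings the maintenance methyltransferase to newly copied DNA, was 1.34-fold lower (adjusted p = 0.0126), a call lost without WT array 1 or 2 or either KO array (adjusted p from 0.0507 to 0.117). Dnmt3l, the partner of the methyltransferases that set imprints, had a signal of 9.35 and 10.12 on KO arrays, against 10.75, 10.68 and 10.33 on WT arrays. It was lower (log2 change -0.85, adjusted p = 0.0369), but -0.47 without KO array 1 (adjusted p = 0.278), and its call was also lost without each WT array (adjusted p from 0.0662 to 0.167). Zfp57, whose protein binds the TGCCGC letters shown above, had a log2 change of -0.34 (95% interval -0.59 to -0.10, adjusted p = 0.0644). Dppa3 and Dnmt3a did not pass in limma either, with changes of -0.45 and -0.37 (adjusted p = 0.0611 and 0.0670). Dnmt1 and Ctcf had changes of 0.00 and 0.05. DNA methylation was not measured, and the part of these factors in the changes of the imprinted genes was not tested.

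Several of the genes are known from the placenta, so markers of other lineages were read beside them. Of 8 trophoblast markers, 3 were higher and 0 lower in KO cells by limma (3 and 1 at an unadjusted p under 0.05), where 8.48% of all genes were higher and 8.6% lower. The 3 were Krt8, Gata3 and Krt18, with log2 changes of 1.54, 1.23 and 0.49 (adjusted p = 0.000175, 0.000177 and 0.0280). The call of Krt18 was lost without WT array 1 or 2 or either KO array (adjusted p from 0.105 to 0.258). The median signal of the list was 6.57 to 6.66 over KO arrays, and 6.015 to 6.20 over WT arrays. Among the lineage factors, Eomes had a signal of 5.18 and 5.55 on KO arrays, against 5.92, 6.08 and 5.56 on WT arrays. Both KO values lay below the WT range, KO array 2 narrowly, and the log2 change of -0.49 did not pass (adjusted p = 0.0977). Cdx2 and Elf5 lay below the array-wide median on every array, with changes of 0.06 each. Tfap2c and Hand1, above that median on every array, had changes of -0.03 and -0.05. Of 8 fibroblast markers, among them the imprinted Dcn, only Vim was called (log2 change 0.83, adjusted p = 0.00287, and 0.0564 without KO array 2), and of 7 primitive endoderm markers only Lama1, which fell (log2 change -1.11, adjusted p = 0.00379, and 0.114 and 0.0684 without KO array 1 and array 2). At an unadjusted p under 0.05 the counts of higher and lower genes were 1 and 0 for the fibroblast list and 0 and 1 for the endoderm list. Of all 19938 genes, 2719 were higher and 2826 lower at that threshold, so single calls in such short lists say little about a lineage. The part of these marker genes' cells in the changes of imprinted genes was not tested.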

How the data were processed

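RNA of 2 Dicer-deficient and 3 wild-type mouse ES cell cultures was hybridised, 1 array each, after biotin labelling of cRNA, per the labels' protocols. The authors deposited 1 table of log2 values, 1 per probe set and array (35556 probe sets). Background correction, probe summary, normalization and log base are not given in the sources used here. The values were read as log2 because all are positive and array medians lie between 5.39 and 5.45. Of the probe sets, 21789 had 1 symbol in the platform annotation, 1621 several and 12146 none. The 19938 genes so named, each by its probe set with the highest mean, were fitted with limma (lmFit, eBayes; 3 residual and 4.545 prior degrees of freedom), KO minus WT without covariates, and Benjamini-Hochberg adjusted over all of them at 0.05. Gene identifiers of 19856 were found in the GRCm38.p6 gene table, which gave chromosome and gene order. No array coordinates are given, since the annotation names no build. An exact permutation of the arrays has 10 splits and cannot go below p = 0.1, so none is given. SDs are between arrays; SEs and 95% intervals are the fit's.

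The genes, the lists and the rule for naming them were chosen with earlier results of these data known. Named are the 10 genes, list members that passed (at most 4 by size, or all where 5 or fewer passed), the same among chromosome 7 neighbours, and the 5 genes most like Phlda2. Genes named to give the value of a neighbour, a relative or a marker that did not pass were chosen after their values were seen. The fit was repeated on values quantile normalized once more or centred on array medians, with dim genes removed, with a trended or a robust variance prior, with the replicate number as a block, with probe sets averaged per gene, on every probe set, and without each array. Calls were also counted at 2-fold or more. Software was limma 3.58.1 in R 4.3.3, with tables and plots from matplotlib 3.10.9, scipy 1.17.1, numpy 2.4.6 and pandas 2.3.3 in Python 3.11.15.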

Additional observations from a re-analysis of the deposited data

How the results depend on the processing

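With 2 and 3 arrays a group, the calls rest on few values. Of 37 named genes that passed, not counting Phlda2, Dicer1 and the 5 genes nearest to Phlda2, 11 kept their call without each array in turn, and 27 kept it, wherever they were fitted, under the 7 alternatives other than leaving out an array and the replicate block. Numbers called over all genes, 1690 higher and 1714 lower, were 536 to 1396 higher and 434 to 1560 lower without 1 array, 307 and 151 at 2-fold or more, and 1259 and 1392 among all probe sets. The replicate numbers give no evidence of pairing: deviations of same-numbered arrays correlated at 0.049 and 0.005. With the replicate block 477 were higher and 417 lower, and 16 of the 37 genes kept their call. WT array 3 has no KO array of its number, so that fit gave the changes found without WT array 3, with fewer degrees of freedom. In that fit Slc22a18 (change -0.335, adjusted p = 0.111), Grb10 (1.05, 0.0573) and Igf2r (-0.80, 0.0728) did not pass. Other imprinted genes gave 3 higher and 3 lower in it, the Igf lists 0 and 3, and the chromosome 7 neighbours 2 and 1. Without 1 array, these lists gave 3 to 6 higher and 3 to 6 lower for other imprinted genes, 0 to 2 and 2 to 6 for the Igf lists, and 2 to 4 lower for the neighbours. The neighbours gave 2 to 3 higher without 1 WT array. With all probe sets tested, the Igf lists gave 1 higher, and Slc22a18 had adjusted p = 0.0979 at -0.32. Slc22a18 did not pass when centred (-0.317) or with a trend (-0.32), and without 1 array ran from -0.36 to -0.265. Ascl2 passed after quantile normalization (-0.468, adjusted p = 0.0485), centring (-0.473, 0.0374) and without dim genes (-0.477, 0.0241), and ran from -0.707 to -0.247 without 1 array. Over the same omissions Mest ran from 0.74 to 1.00, Grb10 from 0.85 to 1.05, Igf2r from -0.90 to -0.55 and Peg3 from -0.307 to 0.0133, where its sign turned without KO array 1. Fits without a KO array assume that the lone array varies like the WT arrays. What causes these differences was not tested. Signal over background was not analysed, so sizes near the median of all probe sets are uncertain.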
